A study of Mus musculus with 15 samples.

Results

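The colon tumours of mice carrying 1 altered copy of Apc and lacking Olfm4 were compared with colon of mice that also lacked Olfm4 but had both copies of Apc. The tumour side held 3 arrays (APC+/-/Olfm4-/-, tumor tissue) and the other side held 3 arrays (APC+/+/Olfm4-/-, colon), 6 of the 15 arrays of the series. These members were taken by genotype and tissue label alone, and 18193 genes were compared, each by 1 probe set (the one with the highest mean over the 15 arrays). Olfm4 is deficient on both sides, so the comparison holds that genotype constant while Apc genotype and tumour tissue change together. The remaining 9 arrays were wild type colon (APC+/+/Olfm4+/+), APC mutant colon (APC+/-/OLFM4(+/+)) and tissue labelled adjacent normal from the double mutants (APC+/-/Olfm4-/-), with 3 arrays each. All animals were male, aged 3 months, of a mixed C57BL/6 and 129 background, and the protocol describes age- and sex-matched littermates. RNA of whole tissue pieces was hybridised to a genome-wide Affymetrix mouse expression array.

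What each group can stand for is limited by its animals. The numbers in the titles tie the 3 tumours to 2 animals: replicate 1 came from one animal, and replicates 2 and 3 came from the other. The adjacent pieces came from the same 2 animals in the same way, although the series text speaks of more mice than that per category. Among the Olfm4 mutant arrays, the title number of replicate 3 is made of the last digits of the other two animals' numbers, and whether it was a pool of them is not stated. The p-values below cover the spread among these arrays only, and some of that is spread between pieces of 1 animal. When the arrays of an animal were averaged first, 21 of the 213 called genes named here lost their call: Ctnnb1, Trpm5, Il25, Ltc4s, Reg1, Anxa3, Fn1, Emcn, Cr2, Zap70, Il1b, Rel, Iigp1, Pgam1, Tpi1, Cps1, Retn, Zg16, Ccnb1ip1, Hamp2 and Vil1. The labels do not give the mutated allele of Apc or the construct that removed Olfm4, and there is no tumour in these data from a mouse with Olfm4 intact.

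Apc is a scaffold of the complex that marks beta-catenin for destruction, and cells that lose it keep beta-catenin, which drives target genes together with the T-cell factors Tcf and Lef. In the intestine this Wnt pathway maintains the stem cells at the crypt base, and differentiation into absorptive, goblet and enteroendocrine cells follows as cells leave the crypt. Olfm4 encodes olfactomedin 4, a secreted glycoprotein known as a marker of crypt stem cells in the human gut and in the mouse small intestine, and as a granule protein of neutrophils.

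The array could not check the Olfm4 genotype. Its only Olfm4 probe set read 3.12 ± 0.15 (SD, n = 3) in Olfm4 mutant colon and 3.20 ± 0.11 (SD, n = 3) in tumours on the log2 scale, and it ran from 2.97 to 3.32 over all 15 arrays, wild type included, where the lowest value of any probe set was 2.56. For Apc the 4 probe sets disagreed. The brightest was higher in tumours, by 0.68 (SE 0.12, limma adjusted p = 0.000984), another was higher by 0.41 (limma adjusted p = 0.0233), the third was lower, by -0.92 (limma adjusted p = 0.0183), and the last did not pass the test (-0.30, limma adjusted p = 0.145). The position of each probe set in the gene, and of the mutation, was not determined here, so the Apc label is not checked by them.

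The tissue label was checked against 10 colon epithelium markers. In Olfm4 mutant colon all 10 read above 11 on the log2 scale, and in tumours Cdx1 read 8.60, 8.61 and 8.45 and Cdx2 read 10.37, 9.80 and 9.57. Epcam, the epithelial adhesion molecule, stood at 13.76, 13.71 and 13.71 in Olfm4 mutant colon and at 13.70, 13.62 and 13.53 in tumours, and Krt8, Krt18, Cdh1 and Cdh17 likewise gave no difference past the threshold. The other 5 were lower in tumours: -0.64 for Krt19, -0.65 for Lgals4, -0.37 for Vil1, -2.95 for Cdx1 and -3.46 for Cdx2, the last pair being the transcription factors that specify intestine.

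A technical measure moved with the groups. Arrays carry probe sets at the 3′ and the 5′ end of 4 bacterial RNAs that are added to the sample, and the 3′ minus 5′ difference grows when labelling loses the 5′ end. Averaged over 8 probe set pairs, this spike-in difference was 2.35, 3.31 and 2.44 log2 units on the Olfm4 mutant arrays and 5.06, 5.17 and 4.70 on the tumour arrays. The means were 2.70 ± 0.53 (SD, n = 3) and 4.98 ± 0.25 (SD, n = 3), and the two-sided exact permutation test gave p = 0.1, the smallest that 3 against 3 allows. Wild type averaged 2.05, APC mutant 2.23 and adjacent tissue 4.12. For the mouse gene Gapdh the same difference was 0.75, 2.76 and 0.97 on the Olfm4 mutant arrays and 4.49, 4.94 and 4.29 on the tumour arrays. In this comparison labelling and group cannot be told apart. A second fit takes the spike-in difference of each array as a covariate, and its values stand beside the results. Leaving out Olfm4 mutant replicate 2 ended all of its calls, and leaving out adjacent replicate 3 raised their number, as given at the end.

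**Figure D1:**
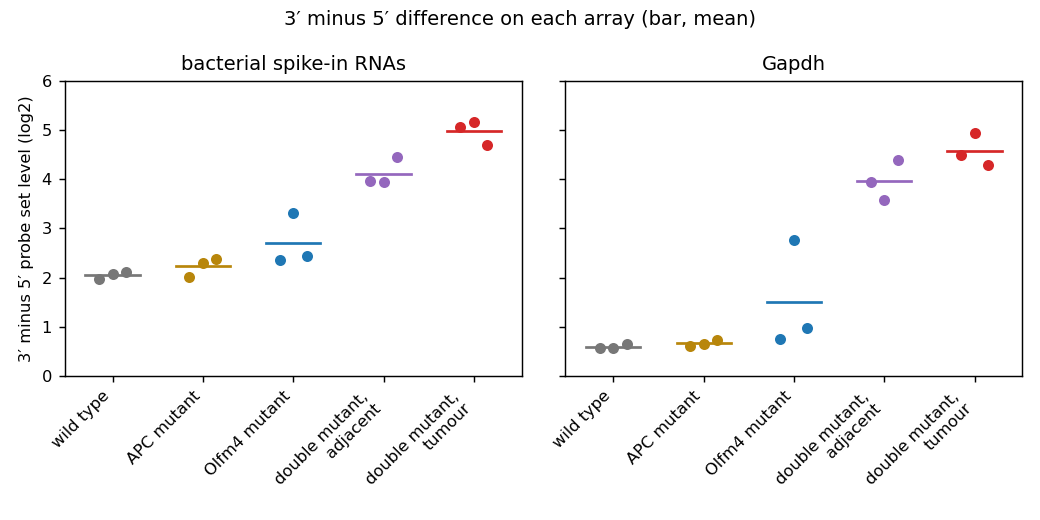
The 3′ minus 5′ difference in log2 units is plotted for each of the 15 arrays by group, for the bacterial spike-in RNAs (left) and for Gapdh (right), with bars at the group means. All 3 tumour arrays lie above all Olfm4 mutant arrays in both panels, and replicate 2 is the highest of the Olfm4 mutant arrays, at 3.31 for the spike-in RNAs and 2.76 for Gapdh.

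3 arrays stood apart from the others of their group. Olfm4 mutant replicate 2 had the highest spike-in difference of its group. Its correlation with replicate 1 over all genes was 0.9874, against 0.9952 between replicates 1 and 3. It lay nearest to the tumours of its group in 56.1% of the 3486 genes called with at least a 2-fold difference. For any gene 1 of the 3 arrays must be nearest. Adjacent replicate 3 carried high levels of genes that marked the tumours: it was the highest adjacent array for all 14 of the genes with the greatest rise, by 2.13 to 4.40 log2 units over the mean of the other pair. It enters the comparison only through the shared estimate of spread, and 6936 genes were called without it. Tumour replicate 1, the only tumour of its animal, lay nearest to the Olfm4 mutant mean of its group in 52.5% of the same 3486 genes. It differed from the other tumours in immune and muscle genes, given below.

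The comparison called 7233 of 18193 genes at a limma adjusted p under 0.05, which is 39.8%. Of these, 3844 were higher in tumours (21.1% of all genes tested) and 3389 were lower (18.6%). The median difference over all genes was 0.05. At least 2-fold changes were found in 1665 higher and 1821 lower genes, and at least 16-fold changes in 119 higher and 46 lower genes. The arrays of both sides did not overlap for 9882 genes, 54.3% of those tested. The counts in the gene groups below are to be read against these shares. With the spike-in difference as covariate 96 genes were called, 0.528% of those tested. Over the 7233 genes the median SE rose from 0.20 to 0.59 in that fit, and 82.2% of them had the same direction in both fits. Both fits use the same arrays, and 12140 of all 18193 genes had the same direction in them.

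The greatest rises combined Wnt pathway genes with genes of other tissues. Otop1, a proton channel known from sour taste cells, read 4.01, 3.86 and 3.75 in Olfm4 mutant colon and 12.59, 12.38 and 12.59 in tumours. That is a difference of 8.65 (SE 0.76, limma adjusted p = 3e-06). Its Olfm4 mutant values lie near the low end of the array scale, so the size of the difference is uncertain there. The same limit applies to other genes below with such values, among them Wnt3, Wif1, Dkk2, Fzd10, Cxcl2 and Cxcr2. Slc30a2, a zinc exporter, rose by 7.66 and Mt4, a metallothionein that binds zinc, by 6.83. Sox2, a transcription factor of stomach and progenitor cells, went from 4.59, 5.09 and 5.07 to 11.64, 11.62 and 11.93, a rise of 6.81 (SE 0.79, limma adjusted p = 2.48e-05). The related factor Sox11 rose by 6.48. Pnliprp1, a lipase-related protein of the pancreas, rose by 6.37, Tnfrsf11b, the decoy receptor osteoprotegerin, by 6.34, and Psapl1, a prosaposin-like gene, by 6.20. The other 6 of the 14 were Wnt10a, Wif1, Mmp7, Lgr6, Ms4a2 and Cxcl2, described with their groups. For all 14, no Olfm4 mutant array exceeded 7.53 and no tumour array was below 9.99.

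The greatest falls were in genes of absorptive cells, nerves, muscle and fat. Cyp2c55, a cytochrome P450 of the colon epithelium, read 11.34, 12.72 and 12.14 in Olfm4 mutant colon and 6.74, 5.43 and 5.77 in tumours, a difference of -6.09 (SE 0.35, limma adjusted p = 1.12e-07). Hsd3b3, a steroid dehydrogenase, stood at 9.95, 10.89 and 10.64 against 5.27, 5.29 and 5.26, and fell by 5.22. Sult1a1, a sulfotransferase, fell by 4.86, and Kcnd3, a potassium channel, by 4.80. The antisense transcript Hoxb5os fell by 5.16. In 8 of the 14 genes with the greatest fall, the highest tumour value was that of tumour replicate 1, the array that also kept the most muscle transcript. Because these are pieces of whole tissue, fewer cells of a type and less RNA per cell cannot be told apart.

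The Wnt pathway was not higher as a whole: target genes were mostly higher, while receptors and the destruction complex were called in both directions. Steep rises were found among ligands, inhibitors, receptors and target genes. Of the 19 Wnt ligands, 8 rose and 1 fell, with a median difference of 0.22. Over all genes 21.1% were higher and 18.6% lower. Wnt10a, a ligand that signals through beta-catenin, stood at 5.11, 4.75 and 5.31 in Olfm4 mutant colon and at 12.66, 12.67 and 12.75 in tumours. It rose by 7.64 (SE 0.44, limma adjusted p = 1.12e-07), with no overlap of the arrays. Wnt6 rose by 2.75 (SE 0.24, limma adjusted p = 2.73e-06). Wnt3, the ligand that Paneth cells supply to stem cells, rose from a low level (3.65, 4.0 and 4.0) to 5.31, 5.49 and 4.77, by 1.31 (SE 0.19, limma adjusted p = 0.000163). Wnt5a, Wnt5b and Wnt16 rose by 1.34, 1.07 and 1.01. With the spike-in covariate Wnt10a kept a difference of 6.59 (limma adjusted p = 0.0611), whereas that of Wnt16 was -0.10 (limma adjusted p = 0.988).

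Several secreted inhibitors of Wnt signalling were among the steepest rises. Of 15 measured, 6 rose and 2 fell. Wif1, which binds Wnt proteins outside the cell, went from 4.44, 4.38 and 4.34 to 12.02, 11.91 and 11.96, a rise of 7.58 (SE 0.73, limma adjusted p = 5.5e-06). Notum, an enzyme that removes the lipid from Wnt proteins, went from 5.66, 5.78 and 5.84 to 11.12, 11.06 and 11.57, a rise of 5.49 (SE 0.45, limma adjusted p = 1.79e-06). Apcdd1, a membrane inhibitor, rose by 4.94, Dkk2 by 3.78 and Dkk3 by 1.63. In the opposite direction, Sfrp1, a secreted frizzled-related protein, fell by 1.54. The adjacent tissue read 6.15, 5.95 and 9.89 for Wif1 and 6.47, 5.80 and 8.35 for Notum, so its replicate 3 lay well above the other adjacent pieces for both genes.

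**Figure D2:**
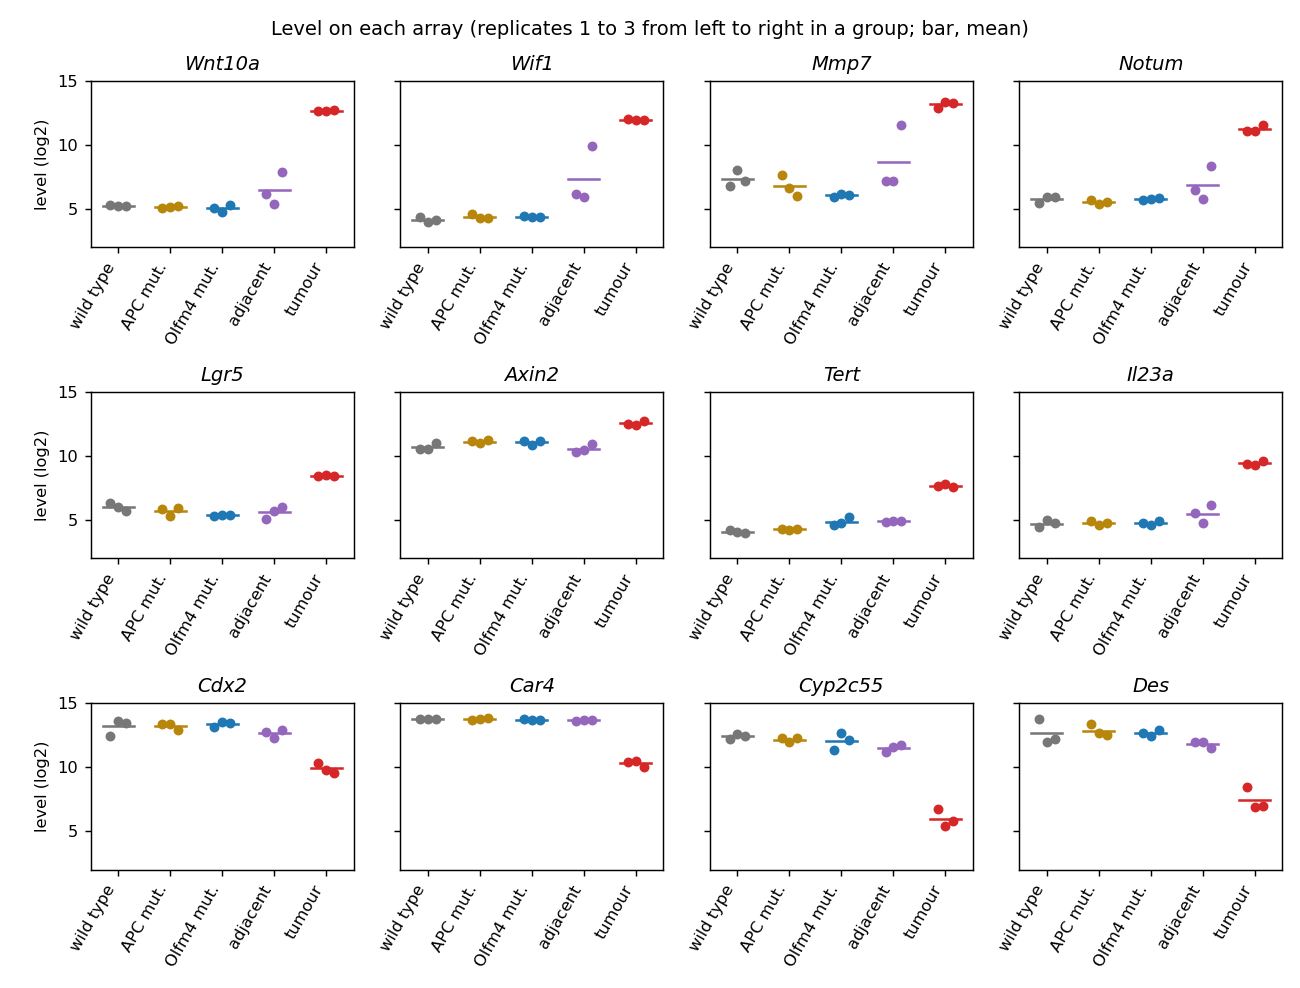
The log2 level of 12 genes is plotted on each of the 15 arrays, in 5 groups with replicates 1 to 3 from left to right and a bar at the mean. For Wnt10a the tumours sit at 12.66 to 12.75 and the Olfm4 mutant arrays at 4.75 to 5.31, Car4 is at 13.70 to 13.78 in Olfm4 mutant colon and 10.06 to 10.52 in tumours, and adjacent replicate 3 is the highest adjacent array for Wif1, at 9.89.

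Promoters among the steepest Wnt rises are shown because T-cell factors bind CTTTGAA and CTTTGAT. The genes were those with the greatest called rise among the inhibitors, the receptors and the target genes: Wif1, Mmp7, Lgr6 and Notum. Windows of Wif1, Mmp7 and Lgr6 are printed, and Notum had no window in the RefSeq set used. They are from RefSeq on GRCm38.p6 and run 5′ to 3′ on the gene's strand, from 250 bases before the start site to 50 after it. Wif1 lies on the plus strand at chr10:121033754-121034053, Mmp7 on the plus strand at chr9:7691840-7692139 and Lgr6 on the minus strand at chr1:135105227-135105526. Capitals mark a match to either motif on either strand.
Wif1: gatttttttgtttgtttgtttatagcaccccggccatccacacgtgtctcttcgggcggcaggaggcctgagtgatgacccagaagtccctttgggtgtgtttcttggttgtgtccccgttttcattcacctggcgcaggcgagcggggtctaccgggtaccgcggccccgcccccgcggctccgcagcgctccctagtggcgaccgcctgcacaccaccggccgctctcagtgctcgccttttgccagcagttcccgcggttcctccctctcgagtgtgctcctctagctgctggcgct
Mmp7: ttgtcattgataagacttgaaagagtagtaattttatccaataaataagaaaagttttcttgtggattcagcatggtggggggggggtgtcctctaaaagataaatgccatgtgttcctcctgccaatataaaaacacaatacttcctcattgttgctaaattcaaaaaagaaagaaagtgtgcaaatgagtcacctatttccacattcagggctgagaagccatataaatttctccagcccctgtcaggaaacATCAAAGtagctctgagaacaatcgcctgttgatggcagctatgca
Lgr6: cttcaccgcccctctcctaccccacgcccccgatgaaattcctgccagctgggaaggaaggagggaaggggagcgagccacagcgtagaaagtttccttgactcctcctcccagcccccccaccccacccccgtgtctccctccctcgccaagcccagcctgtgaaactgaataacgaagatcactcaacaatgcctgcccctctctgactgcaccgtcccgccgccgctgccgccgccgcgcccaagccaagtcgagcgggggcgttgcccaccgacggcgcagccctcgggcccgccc
The Mmp7 window held 1 match, CTTTGAT on the opposite strand, beginning at base 5 after the start. A further Mmp7 window of the table overlaps it and holds the same site, at -247 from its own start site, so this site counts in both windows below. No match is in the windows of Wif1 and Lgr6. Over all 32851 RefSeq windows of this length, 8.65% held either motif (5.14% CTTTGAA and 3.73% CTTTGAT). Of the 30 called rises in these lists, 19 genes had 27 windows, and 6 of the 27 windows held a motif (22.2%), in 4 genes. These shares were not tested.

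Wnt receptors were called in both directions. Of 22 receptors and R-spondins, 8 rose and 5 fell, with a median of 0.03, and of -0.53 with the spike-in covariate. Lgr5, the R-spondin receptor that marks crypt stem cells, stood at 5.28, 5.40 and 5.43 in Olfm4 mutant colon and at 8.41, 8.53 and 8.42 in tumours, a rise of 3.08 (SE 0.23, limma adjusted p = 8.12e-07). Its relative Lgr6 went from 5.77, 5.54 and 5.52 to 11.57, 12.22 and 11.61, a rise of 6.19 (SE 0.47, limma adjusted p = 9.3e-07). Fzd10 rose by 2.08, with tumour values spread from 5.00 to 7.17. Fzd5, the main frizzled receptor of intestinal epithelium, fell by 2.10 (limma adjusted p = 7.46e-06). Rspo3, a stromal ligand of the Lgr receptors, fell by 2.71. Fzd7 read 10.41, 10.49 and 10.35 in Olfm4 mutant colon and 10.39, 10.33 and 10.43 in tumours and did not pass the test (-0.04, SE 0.30, limma adjusted p = 0.938).

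The destruction complex and its partners moved less. Of 20 genes, 5 rose and 3 fell, a share close to the 39.8% of all genes. Ctnnb1, which encodes beta-catenin itself, was higher by 0.26 (SE 0.09, limma adjusted p = 0.0293) with its brightest probe set. Both Ctnnb1 and Apc turned sign when the mean or the most variable probe set stood for the gene: -0.36 and -1.23 for Ctnnb1, and -0.04 and -0.92 for Apc. Tnks, a tankyrase that promotes the degradation of Axin, rose by 0.99 (SE 0.13, limma adjusted p = 8.84e-05). The co-activator Pygo1 rose by 1.13. The transcription factors Tcf7l1 and Tcf7l2 fell by 1.08 and 1.01.

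Feedback and target genes of the pathway were mostly higher. Of 19 measured, 16 rose and 1 fell, with a median of 1.96 against 0.05 over all genes. Axin2, a feedback inhibitor induced by beta-catenin, read 11.18, 10.84 and 11.21 in Olfm4 mutant colon and 12.48, 12.43 and 12.76 in tumours, a rise of 1.48 (SE 0.17, limma adjusted p = 2.72e-05). Mmp7, the metalloproteinase matrilysin, went from 5.93, 6.17 and 6.07 to 12.90, 13.39 and 13.27, a rise of 7.13 (SE 0.90, limma adjusted p = 4.74e-05). The factors Sp5 and Prox1 rose by 5.24 and 5.06, and Nkd1, a feedback inhibitor, by 3.80. Myc, the classical target, did not pass the test: it read 8.89, 8.28 and 8.64 in Olfm4 mutant colon and 9.14, 9.33 and 8.74 in tumours, a difference of 0.47 (SE 0.39, limma adjusted p = 0.373). With the spike-in covariate the median of the group was 1.25 and no member was called.

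Most crypt stem cell genes were higher as well. Of 16, 11 rose and 4 fell, with a median of 1.05, and of 0.53 with the spike-in covariate. Smoc2, a matrix protein of Lgr5-positive cells, rose by 2.55 (SE 0.25, limma adjusted p = 7.26e-06). The RNA-binding proteins Msi1 and Mex3a rose by 3.49 and 3.45. Tert, the catalytic subunit of telomerase, stood at 4.64, 4.77 and 5.20 in Olfm4 mutant colon and 7.65, 7.80 and 7.62 in tumours, a rise of 2.82 (SE 0.13, limma adjusted p = 2.99e-08). Tert was the member of this group called with the covariate too (2.86, limma adjusted p = 0.0213). Rnf32 and the factor Sox4 rose by 2.33 and 1.91. The falls were Aqp4, Rgmb, Lrig1 and Kcne3.

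**Figure D3:**
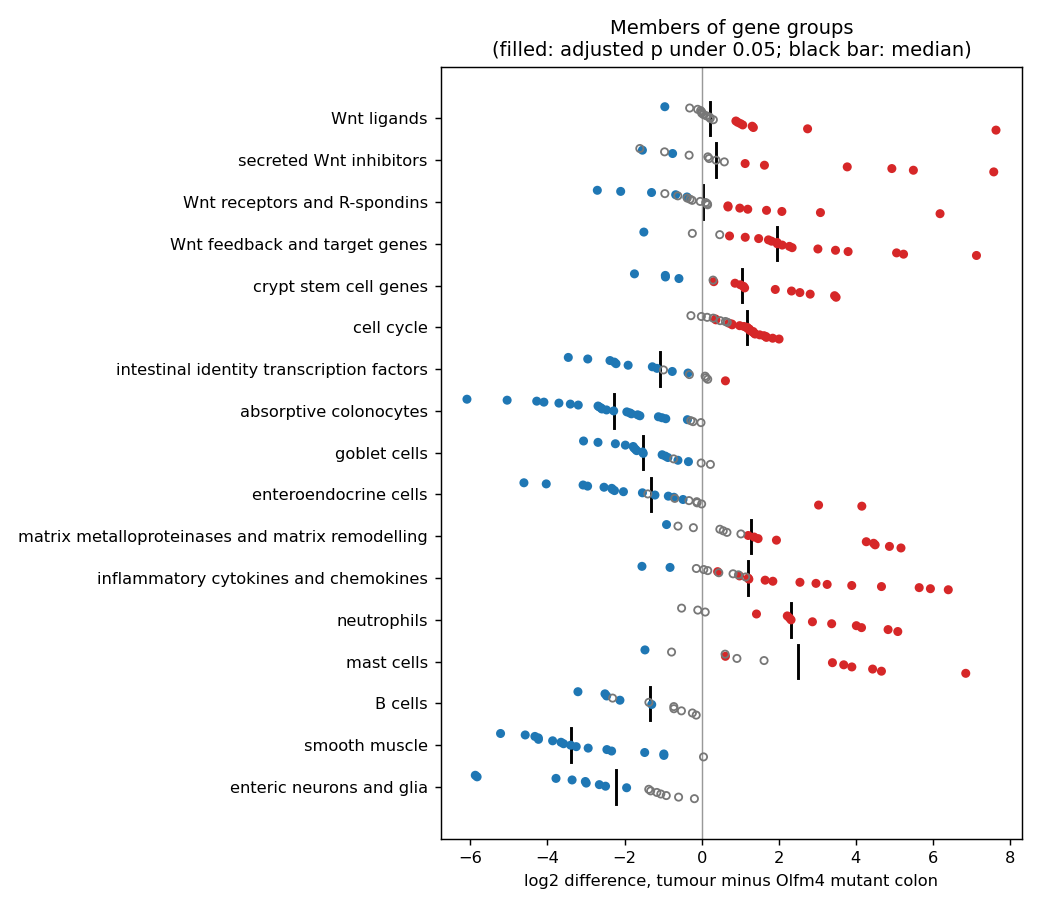
Each point is a gene of 1 of 17 gene groups, placed by its log2 difference (tumour minus Olfm4 mutant colon). Filled points passed an adjusted p of 0.05, red for higher and blue for lower, and black bars are medians, from -3.40 for smooth muscle to 2.51 for mast cells.

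Notch and BMP genes did not move one way. Of 18 Notch genes, 6 rose and 3 fell. The receptor Notch1 and the target Hes1 did not pass the test, with differences of 0.09 and 0.23 (limma adjusted p = 0.811 and 0.435). Nrarp, a feedback inhibitor, fell by 2.0 and the target Hey2 by 1.75. For Nrarp, Olfm4 mutant replicate 2 lay toward the tumours (11.82, 10.55 and 11.60 against 9.32, 9.25 and 9.385). With the spike-in covariate the difference of Nrarp was -0.48 (limma adjusted p = 0.939). The ligand Dll3 rose by 1.53. Notch4 rose by 1.41 (SE 0.21, limma adjusted p = 0.000149), and adjacent tissue read 9.71, 9.66 and 9.81 against a tumour mean of 9.75. With the spike-in covariate the difference of Notch4 was 0.12 (limma adjusted p = 0.984). Among 16 BMP genes, 5 rose and 4 fell. The ligand Bmp7 rose by 2.87 and Bmp4 did not pass the test (-0.04, SE 0.18, limma adjusted p = 0.897). The targets split: Id2 rose by 1.39 and Id4 fell by 3.18, while Chrdl1, a stromal BMP antagonist, fell by 3.17. Id1 read 11.82, 9.62 and 11.66 in Olfm4 mutant colon, with replicate 2 lying toward the tumours (9.07, 8.34 and 8.67). It was called lower, by 2.34, and had a difference of 1.35 with the covariate.

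Most cell cycle genes were higher by modest amounts. Of 29, 22 rose and 0 fell, with a median of 1.18. Cdc6, a licensing factor of replication, stood at 7.15, 7.75 and 7.42 in Olfm4 mutant colon and 9.43, 9.74 and 9.17 in tumours, a rise of 2.01 (SE 0.23, limma adjusted p = 2.16e-05). The checkpoint kinase Bub1 rose by 1.84, the helicase subunits Mcm2 and Mcm5 by 1.68 and 1.67, and cyclin Ccne1 by 1.62. Mki67, the proliferation marker, read 10.79, 11.40 and 11.24 in Olfm4 mutant colon and 12.32, 11.78 and 11.45 in tumours, a rise of 0.71 (SE 0.25, limma adjusted p = 0.0382). The group's median with the spike-in covariate was 0.02, and Mki67 had a difference of -0.11 there (limma adjusted p = 0.992).

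Most transcription factors called among those of intestinal epithelium were lower. Of 16, 10 fell and 1, Foxa2, rose, with a median of -1.07. Cdx2, the homeobox factor of intestinal identity, stood at 13.17, 13.51 and 13.43 in Olfm4 mutant colon and at 10.37, 9.80 and 9.57 in tumours, a difference of -3.46 (SE 0.29, limma adjusted p = 2.25e-06). Cdx1 went from 11.55, 11.26 and 11.71 to 8.60, 8.61 and 8.45, a difference of -2.95 (SE 0.17, limma adjusted p = 1.39e-07). The vitamin D receptor Vdr fell by 2.38, the bile acid receptor Nr1h4 by 2.26 and Klf4, a factor of differentiated cells, by 2.22. Hnf4a, a factor of all gut epithelium, fell by 0.35 (limma adjusted p = 0.00747). The group median with the covariate was -1.21, and Cdx2 had -4.50 (limma adjusted p = 0.0519).

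Genes of absorptive colonocytes were mostly lower. Of 25, 22 fell and 0 rose, with a median of -2.28. Car4, a surface carbonic anhydrase, stood at 13.78, 13.70 and 13.71 in Olfm4 mutant colon and at 10.39, 10.52 and 10.06 in tumours. It fell by 3.41 (SE 0.11, limma adjusted p = 4.02e-09), with the arrays of each side close together. Slc26a3, the chloride and bicarbonate exchanger, went from 13.52, 13.52 and 13.46 to 10.43, 9.10 and 8.69, a difference of -4.09 (SE 0.32, limma adjusted p = 1.09e-06). Aqp8, the water channel of surface cells, went from 11.76, 11.14 and 11.61 to 6.43, 6.66 and 6.27, a difference of -5.05 (SE 0.22, limma adjusted p = 2.07e-08). Tmigd1 and Slc51b, a subunit of the bile acid exporter, fell by 4.28 and 3.70. With the covariate the median was -2.60, and 6 members were still called lower, among them Car4 (-3.68, limma adjusted p = 0.0039).

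Lipid uptake genes split by member. Of 16, 6 fell and 0 rose, with a median of -0.43. Fabp2, the intestinal fatty acid binding protein, stood at 12.41, 13.43 and 13.19 in Olfm4 mutant colon and 7.64, 8.0 and 6.91 in tumours, a difference of -5.49 (SE 0.48, limma adjusted p = 2.85e-06), and remained called with the covariate (-8.16, limma adjusted p = 0.0296). Rbp2, a retinol binding protein, read 13.10, 9.85 and 12.69 against 5.52, 7.11 and 6.92, with Olfm4 mutant replicate 2 below the others of its group. It fell by 5.37 (SE 0.83, limma adjusted p = 0.000238), and with the covariate its difference was -1.13. Apob, the protein of chylomicrons, fell by 3.53, Cd36 by 2.46 and Apoc3 by 2.24. Apoa1 did not pass the test (-0.11, SE 0.38, limma adjusted p = 0.849).

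Secretory lineages were lower as well. Of 18 goblet cell genes, 15 fell and 0 rose, with a median of -1.52. Muc2, the gel-forming mucin, stood at 12.33, 12.78 and 12.77 in Olfm4 mutant colon and at 11.83, 10.09 and 9.26 in tumours, so tumour replicate 1 lay nearest to the Olfm4 mutant level. Its difference was -2.24 (SE 0.45, limma adjusted p = 0.00167). Spdef, the goblet cell transcription factor, fell by 3.06 (SE 0.42, limma adjusted p = 0.000102), the channel Best2 by 2.69 and Atoh1, the factor that commits cells to secretion, by 1.98. Creb3l1 and Tpsg1 fell by 1.78 and 1.76. The group median on the 3 tumour arrays, relative to the Olfm4 mutant mean, was -0.70, -1.47 and -1.84. With the covariate it was -1.85 over all tumours, and no member was called.

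Enteroendocrine genes gave 14 falls and 2 rises of 22, with a median of -1.30. Gcg, the precursor of glucagon-like peptides, stood at 12.02, 11.99 and 12.01 in Olfm4 mutant colon and 8.41, 7.85 and 7.66 in tumours, a difference of -4.03 (SE 0.26, limma adjusted p = 2.45e-07), and remained called with the covariate (-4.45, limma adjusted p = 0.0417). Insl5, a peptide of colonic L cells, fell by 4.61 (SE 0.28, limma adjusted p = 1.6e-07). The granule protein Chga fell by 2.26 and somatostatin, Sst, by 3.08. Against this direction, Nts, which encodes neurotensin, went from 5.62, 6.4 and 6.31 to 10.81, 9.89 and 10.10, a rise of 4.16 (SE 0.81, limma adjusted p = 0.00125). The factor Isl1 rose from 9.87, 9.95 and 9.99 to 13.03, 12.999 and 12.88, by 3.03 (SE 0.33, limma adjusted p = 1.38e-05). Tuft cell genes gave 2 rises and 4 falls of 13. Dclk1, a marker of these chemosensory cells, fell by 2.28 (SE 0.16, limma adjusted p = 5.82e-07), and the channel Trpm5 by 1.25 (limma adjusted p = 0.0464). Avil, an actin-binding protein also of sensory neurons, rose by 4.21 (SE 0.41, limma adjusted p = 5.99e-06). Without Olfm4 mutant replicate 2 there were 1 rise and 2 falls, the calls of Trpm5, Il25 and Alox5ap being lost. The smaller changes were Il25 at -0.79, Ltc4s at -0.52 and Alox5ap at 0.70.

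Antimicrobial and injury-associated genes rose in part. Of 12 Paneth and Reg genes, 5 rose and 2 fell. Reg3g, a bactericidal lectin, stood at 6.51, 6.41 and 6.69 in Olfm4 mutant colon and at 10.17, 12.57 and 12.30 in tumours, a rise of 5.14 (SE 1.19, limma adjusted p = 0.00389). Reg3b and Itln1 rose by 4.96 and 3.67, and Reg1 and lysozyme, Lyz1, by 0.74 and 0.73. Ang4, an antimicrobial ribonuclease, read 6.70, 14.005 and 13.67 in Olfm4 mutant colon, so replicate 1 lay far below the others, and it did not pass the test (0.68, SE 1.73, limma adjusted p = 0.791). Of 11 regenerative and fetal genes, 5 rose and 1 fell. The alarmin Il33 rose by 3.06 (SE 0.45, limma adjusted p = 0.000151), Krt7 by 1.27, Anxa10 by 1.13 and Clu, a marker of revival stem cells, by 1.08. Anxa3 fell by 0.47.

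Matrix proteases rose steeply. Of 16 genes of matrix remodelling, 9 rose and 1, Timp3, fell, with a median of 1.29. Mmp10, the protease stromelysin, stood at 8.31, 8.12 and 8.46 in Olfm4 mutant colon and at 13.04, 13.20 and 13.28 in tumours, a rise of 4.87 (SE 0.82, limma adjusted p = 0.000446). Mmp12, the elastase of macrophages, rose by 5.17 (SE 0.58, limma adjusted p = 1.86e-05). The collagenase Mmp13, the gelatinase Mmp9 and the hyaluronidase Cemip rose by 4.50, 4.27 and 4.46, and the membrane protease Mmp14 by 1.36. The median with the covariate was 2.15, and no member was called there. Fibroblast genes did not follow one direction, with 4 rises and 3 falls of 17. Col1a1 rose by 0.55 (SE 0.12, limma adjusted p = 0.0036), the receptor Pdgfra by 0.96 and fibronectin, Fn1, by 1.13. Fap, Lum and Postn, all genes of fibroblasts, fell by 1.93, 1.66 and 1.34.

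Transcripts of the muscle wall were much lower in tumours. Of 17 smooth muscle genes, 16 fell and 0 rose, with the median of -3.40 being the lowest of all groups. Desmin, Des, stood at 12.65, 12.43 and 12.88 in Olfm4 mutant colon and at 8.42, 6.88 and 7.01 in tumours, a difference of -5.22 (SE 0.47, limma adjusted p = 3.39e-06). Myh11, the smooth muscle myosin, went from 12.69, 12.76 and 12.80 to 10.11, 7.66 and 7.51, a difference of -4.33 (SE 0.55, limma adjusted p = 5.35e-05). Pln, Synm and Myl9 fell by 4.58, 4.24 and 4.23, and Acta2, which activated fibroblasts also express, by 1.48. By array the group median was -2.20, -3.89 and -3.93 on the tumours, so replicate 1 held more muscle transcript than the pair from the other animal. With the covariate the median was -2.54, and no member was called. The labels do not say how much muscle wall each piece held, and the part of tissue makeup in the other differences was not tested.

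Nerve transcripts were lower too. Of 16 genes of enteric neurons and glia, 9 fell and 0 rose, with a median of -2.22. Vip, a neuropeptide, stood at 11.70, 11.74 and 11.43 in Olfm4 mutant colon and at 9.58, 4.07 and 3.60 in tumours. The difference was -5.87 (SE 1.11, limma adjusted p = 0.00104), with the first tumour far above the others. Rims1, a protein of synaptic release, fell by 5.83 (SE 0.76, limma adjusted p = 6.53e-05), and Stmn2, Scg5 and Prph by 3.78, 3.36 and 3.02. Sox10, the factor of enteric glia, fell by 2.65. With the covariate the median was -1.59, and no member was called. Fat transcripts gave 4 falls of 10 and 0 rises. Adipoq, the adipocyte hormone, stood at 8.25, 9.18 and 8.90 in Olfm4 mutant colon, 3.75, 4.20 and 3.80 in tumours and 4.75, 4.24 and 10.31 in wild type. It fell by 4.86 (SE 1.36, limma adjusted p = 0.0118). Tumours did not differ past the threshold from wild type (-2.52, limma adjusted p = 0.144) or from adjacent tissue (-2.13, limma adjusted p = 0.282). Pck1, an enzyme of glucose synthesis in epithelium and fat, fell by 4.67, Fabp4 by 2.44 and Retn by 2.38. Endothelial genes gave 3 rises and 3 falls of 13: Pecam1, Emcn and Kdr were lower by 0.86, 0.73 and 0.63, and Cdh5, Vwf and Egfl7 higher by 0.66, 0.64 and 0.53.

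**Figure D4:**
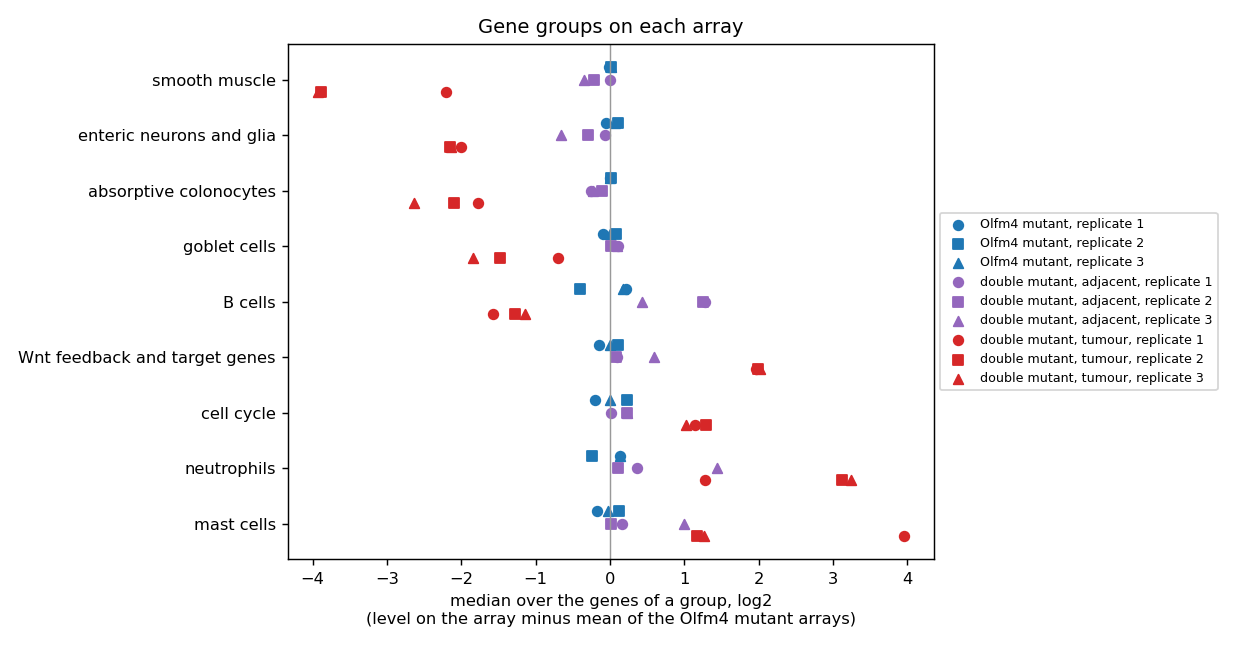
For 9 gene groups, each point is the median over the group's genes of the log2 level on 1 array minus the mean of the Olfm4 mutant arrays, for the Olfm4 mutant, adjacent and tumour arrays. Tumour replicate 1 differs from tumour replicates 2 and 3 for smooth muscle (-2.20 against -3.89 and -3.93), neutrophils (1.28 against 3.12 and 3.24) and mast cells (3.96 against 1.17 and 1.26).

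Most neutrophil genes were higher in tumours, by unequal amounts on the 3 arrays. Of 13, 10 rose and 0 fell, with a median of 2.32. S100a8, a subunit of calprotectin, stood at 8.75, 6.80 and 8.11 in Olfm4 mutant colon and at 11.50, 13.66 and 13.77 in tumours, a rise of 5.09 (SE 0.92, limma adjusted p = 0.000757). Its partner S100a9 rose by 4.84. The receptor Clec4e, lactoferrin (Ltf) and the decoy receptor Il1r2 rose by 4.15, 4.01 and 3.37. Cxcr2, the receptor through which neutrophils are recruited, went from 3.50, 3.61 and 3.41 to 4.14, 6.83 and 6.22, a rise of 2.22 (SE 0.47, limma adjusted p = 0.00232). The group median was lowest on tumour replicate 1 (1.28, 3.12 and 3.24 on the 3 tumours). With the covariate it was 2.37 over the group, and no member was called.

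Mast cell genes showed the opposite order between the animals. Of 12, 7 rose and 1 fell. Mcpt1, a protease of mucosal mast cells, stood at 5.98, 6.53 and 6.64 in Olfm4 mutant colon and at 13.16, 9.87 and 9.42 in tumours, a rise of 4.44 (SE 0.86, limma adjusted p = 0.00122). The related Mcpt2 rose by 4.67. Fcer1a, the alpha chain of the IgE receptor, read 11.56, 6.51 and 7.13 in tumours against 4.27, 5.20 and 4.67, a rise of 3.69 (SE 1.03, limma adjusted p = 0.0121). Tumour replicate 1 was the highest for Mcpt1, Mcpt2 and Fcer1a. Ms4a2, the beta chain of the same receptor, was high in every tumour (11.64, 11.22 and 12.15) and low in Olfm4 mutant colon (4.88, 4.89 and 4.68), and it rose by 6.85 (SE 0.63, limma adjusted p = 3.77e-06). Hdc, the enzyme that makes histamine, rose by 3.90. Kit, the receptor of mast cells and of the pacemaker cells of the muscle wall, fell by 1.47 (SE 0.34, limma adjusted p = 0.00411). The group median was 2.51, and 0.65 with the covariate.

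Inflammatory cytokines and chemokines rose in most cases. Of 23, 14 rose and 2 fell, with a median of 1.21. Cxcl2, a chemokine for neutrophils, stood at 4.0, 3.67 and 4.06 in Olfm4 mutant colon and at 10.18, 9.99 and 10.76 in tumours, a rise of 6.4 (SE 0.69, limma adjusted p = 1.43e-05). Cxcl5 and Cxcl3, which act on the same receptor, rose by 5.94 and 5.64. Il23a, the specific subunit of interleukin 23, went from 4.75, 4.65 and 4.89 to 9.40, 9.27 and 9.62, a rise of 4.67 (SE 0.26, limma adjusted p = 9.82e-08), and remained called with the covariate (4.35, limma adjusted p = 0.0456). Tnf rose by 1.85 (SE 0.20, limma adjusted p = 1.62e-05). Il1b rose by 2.97 (SE 0.88, limma adjusted p = 0.0169) over Olfm4 mutant values of 9.32, 7.07 and 8.81, of which replicate 2 was the lowest. The falls were Ccl20 and Il18.

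B cell and plasma cell genes were mostly lower where called. Of 12 B cell genes, 5 fell and 0 rose, with a median of -1.33, and -0.37 with the covariate. Cd79a, part of the B cell receptor, stood at 9.51, 8.93 and 9.52 in Olfm4 mutant colon and at 7.02, 7.49 and 7.10 in tumours, a difference of -2.12 (SE 0.42, limma adjusted p = 0.00152). Spib, Fcmr and Cr2 fell by 3.21, 2.46 and 1.30, and Cd79b by 2.51 (a difference of 0.17 with the covariate). Colon pieces can hold lymphoid follicles, and the B cell median on the adjacent arrays was 1.28, 1.25 and 0.44. Among 12 plasma cell genes, 8 fell and 1 rose. Mzb1 fell by 2.66 (SE 0.27, limma adjusted p = 8.41e-06), and Irf4, Tnfrsf17 and Pou2af1 by 1.85, 2.25 and 1.49. Ighg3, an immunoglobulin heavy chain, fell by 4.48 over Olfm4 mutant values of 11.80, 9.24 and 11.37. Prdm1, the factor of plasma cells that epithelium also expresses, rose by 1.38 (SE 0.16, limma adjusted p = 2.77e-05).

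T cell and macrophage genes gave calls in both directions. Of 13 T and cytotoxic genes, 3 rose and 1 fell. Cd3e and Cd8a did not pass the test (0.10 and -0.48, limma adjusted p = 0.857 and 0.581). The granzymes Gzma and Gzmb rose by 2.37 and 2.36 and the kinase Zap70 by 1.0, while perforin, Prf1, fell by 0.86. With the covariate the differences of Gzmb and Prf1 were -0.50 and 0.27. Of 13 macrophage genes, 3 rose and 3 fell. Csf1r, the survival receptor of macrophages, had a difference of 0.45 (SE 0.17, limma adjusted p = 0.053) and Cd68 one of 0.11 (SE 0.22, limma adjusted p = 0.738), neither past the threshold. Cd163, a scavenger receptor of resident macrophages, stood at 10.75, 10.26 and 10.61 in Olfm4 mutant colon and 8.37, 5.93 and 6.28 in tumours, a difference of -3.68 (SE 0.61, limma adjusted p = 0.000418). Mertk, which clears dead cells, fell by 2.63, and Fcgr1, an activating Fc receptor, rose by 1.44.

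NF-kappaB and interferon genes had medians near that of all genes. Of 15 NOD and NF-kappaB genes, 4 rose and 2 fell, with a median of 0.01. The inhibitor Nfkbie rose by 1.74 (SE 0.25, limma adjusted p = 0.00012), the kinase Ikbkb by 0.94 and the subunit Rel by 0.93. Nod1, a sensor of bacterial peptidoglycan, fell by 0.76 and Relb by 1.39. Of 15 interferon response genes, 1 rose, Iigp1, a GTPase against intracellular microbes, by 2.77 (SE 0.96, limma adjusted p = 0.0363). The median was 0.17, and -0.82 with the covariate. Irf7 did not pass the test (-0.90, SE 0.46, limma adjusted p = 0.141).

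Metabolic genes moved by member. Of 13 genes of glycolysis and glucose uptake, 5 rose and 1 fell, with a median of 0.06. Slc16a3, the lactate exporter, stood at 7.93, 8.02 and 7.88 in Olfm4 mutant colon and 11.11, 10.87 and 11.02 in tumours, a rise of 3.06 (SE 0.24, limma adjusted p = 1.21e-06). Pfkfb3, an activator of glycolysis, rose by 2.53 (SE 0.27, limma adjusted p = 1.38e-05), while the enzymes Pgam1 and Tpi1 rose by 0.30 and 0.28. Hk2 fell by 0.76, and the transporter Slc2a1 did not pass the test (0.06, SE 0.11, limma adjusted p = 0.719). Of 13 genes of fatty acid oxidation, 7 fell and 1 rose. The receptor Ppara fell by 1.79, the ketone body enzyme Bdh1 by 1.67, Hadha by 1.38 and Etfdh by 0.90. Cpt1a did not pass the test (0.21, SE 0.21, limma adjusted p = 0.477).

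Arginine enzymes diverged. Of 12 enzymes of polyamine and urea cycle metabolism, 2 rose and 4 fell. Otc, which makes citrulline from ornithine, stood at 9.58, 9.86 and 9.25 in Olfm4 mutant colon and at 3.82, 4.61 and 3.76 in tumours, a difference of -5.50 (SE 0.33, limma adjusted p = 1.44e-07), and remained called with the covariate (-6.91, limma adjusted p = 0.0213). Arg1, an arginase, went from 5.61, 5.55 and 5.26 to 9.40, 9.56 and 9.5, a rise of 4.02 (SE 0.62, limma adjusted p = 0.000233), with adjacent values of 5.47, 5.6 and 8.74. Cps1 and Oat fell by 1.56 and 0.95, Ass1 rose by 0.55, and Odc1 did not pass the test (0.26, SE 0.16, limma adjusted p = 0.246). Exocrine pancreas genes gave 2 rises and 2 falls of 12. Besides Pnliprp1, its relative Pnliprp2 rose, from 9.18, 9.38 and 9.55 to 14.18, 14.36 and 14.50 (4.98, SE 0.48, limma adjusted p = 5.6e-06). Cpa1, a pancreatic digestive enzyme, read 4.96, 4.93 and 4.82 in Olfm4 mutant colon and 5.01, 5.20 and 4.60 in tumours (0.03, SE 0.48, limma adjusted p = 0.969), while Cela1 fell by 1.91 and Zg16, which colonic goblet cells also make, by 0.34.

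The adjacent tissue split the comparison into a step within the double mutant and a step between genotypes. The spike-in difference changed in both steps. On the adjacent arrays it was 3.97, 3.94 and 4.45, above all Olfm4 mutant arrays and below all tumour arrays. Labelling and group therefore cannot be told apart in either step, and the covariate fit was not made for them. Tumour against adjacent tissue called 5112 genes (28.1%), and adjacent tissue against Olfm4 mutant colon called 8 (0.044%). Of the 1665 genes at least 2-fold higher in tumours, 84.3% were called in the tumour step alone, with median differences of 1.29 for that step and 0.36 for the other. Of the 1821 lower genes it was 77.4%, with medians of -1.33 and -0.34. The tumour step uses the same tumour arrays by which these genes were picked, so calls there are not independent support. The same limit holds for the genes with the greatest changes. All 14 genes with the greatest rise and 13 of the 14 with the greatest fall were called in the tumour step. None of the 28 were called in the other step, which called 8 genes in all. Some still differed in that other step without a call: Pnliprp1 by 2.98, Wif1 by 2.94 and Aqp8 by -1.34 (limma adjusted p = 0.0716, 0.0841 and 0.0505). Others differed little there, such as Vip (0.25) and Kcnd3 (-0.03). Adjacent replicate 3 lay closest to the tumours among adjacent arrays for 58.5% of the higher genes, at a median of 32.1% of the full difference, against 12.6% and 16.1% for replicates 1 and 2. For the lower genes it lay closest in 49.1% and replicate 1 in 40.7%, at medians of 24.1% and 20.8%. Tumour and adjacent pieces came from the same 2 animals, and with the piece number of the titles as a replicate block the tumour step called 4915 genes, 4734 of them shared with the fit without the block in the same direction.

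The 8 genes called between adjacent tissue and Olfm4 mutant colon were all called in the same direction in tumours. Both comparisons use the same Olfm4 mutant arrays, so a shared direction is not independent support. Hamp2, a hepcidin gene, stood at 8.62, 7.09 and 7.39 in Olfm4 mutant colon, 11.10, 10.01 and 10.57 in adjacent tissue and 8.84, 8.56 and 8.72 in tumours. It was higher by 2.86 in adjacent tissue and by 1.01 in tumours, but its difference in tumours was -0.03 with probe sets of suffix x or s left out. Lair1, an inhibitory receptor of leukocytes, was higher by 2.12 and 1.91, Rinl by 1.86 and 1.85, and Notch4 by 1.39 and 1.41. Rinl averaged 6.53 in Olfm4 mutant colon, 8.11 in wild type and 8.30 in APC mutant colon. Hamp2 averaged 7.70, 9.60 and 9.49 in the same order. Both were lowest in the reference group. With the spike-in covariate the tumour difference of Notch4 was 0.12 (limma adjusted p = 0.984). Tmem229b and Rpap3 were higher by 1.14 and 1.10 in adjacent tissue and by 2.56 and 1.94 in tumours. Pate14 was higher by 0.78 and 0.59. Sdc4, a cell surface proteoglycan, was lower, by -1.01 in adjacent tissue and -2.14 in tumours.

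Using Olfm4 mutant colon in place of wild type as the reference changes a gene by the difference between those groups. That difference was called for 1440 genes (7.92%). Of these, 686 were also called between tumours and Olfm4 mutant colon, where 39.8% of all genes were called. In 442 the tumours went further in the same direction and in 244 they went back. Both differences use the same Olfm4 mutant arrays with opposite sign, so spread in those arrays alone moves genes toward going back. These counts were not tested. Sdr16c6, a retinoid dehydrogenase gene, averaged 4.29 in wild type and read 8.46, 7.24 and 7.98 in Olfm4 mutant colon, 8.30, 9.53 and 9.21 in adjacent tissue and 5.81, 5.50 and 5.41 in tumours. It was thus high in both non-tumour Olfm4-deficient groups and lower in tumours, by a difference of -2.32 (SE 0.44, limma adjusted p = 0.00113) from Olfm4 mutant colon. Zan, a sperm-binding protein gene, was also highest in Olfm4 mutant colon of these 3 groups, at 6.65 on average in wild type, 9.52, 9.19 and 9.64 in Olfm4 mutant colon and 7.01, 6.23 and 5.90 in tumours, a difference of -3.07 (SE 0.54, limma adjusted p = 0.00062). Myl7, the atrial myosin light chain, averaged 10.09 in wild type and read 6.28, 6.70 and 7.12 in Olfm4 mutant colon and 9.86, 10.17 and 9.99 in tumours, a rise of 3.31 (SE 0.83, limma adjusted p = 0.00645). Ccnb1ip1, a ubiquitin ligase of meiosis, and Smarcc1, a chromatin remodeller subunit, averaged 4.20 and 6.39 in wild type and went further, by 1.01 and 1.84, from Olfm4 mutant colon to tumours.

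Some genes that depart from wild type differed within the Olfm4 mutant group itself. Rabac1, a vesicle transport protein, read 10.02, 7.21 and 9.94 in Olfm4 mutant colon, 6.28, 5.55 and 6.11 in tumours and 11.61 on average in wild type. C1qa, a complement subunit of macrophages, read 9.62, 7.27 and 9.45 in Olfm4 mutant colon and 6.89, 6.77 and 7.09 in tumours, with 11.01 in wild type. In both, replicate 2, the Olfm4 mutant array with the highest spike-in difference, lay nearest to the tumours. The same held for Get3, Cda and Sct, whose falls in tumours were 2.0, 1.56 and 1.54. With the covariate all 5 turned sign, to 2.87 for Rabac1, 2.56 for C1qa, 1.37 for Get3, 1.44 for Cda and 0.97 for Sct, none of them called.

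Of the 96 genes called with the spike-in covariate, 40 were higher and 56 lower in tumours, and 91 were among the 7233 in the same direction. The falls included enzymes and transporters of mature colonocytes: Cyp2c55 (-7.95), Aqp8 (-4.68), Ces1e (-5.04), Sult1c2 (-4.46), Slc13a2 (-4.37), Slc26a2 (-2.81), Slc5a8 (-3.40), the mineralocorticoid receptor Nr3c2 (-2.80) and the prostaglandin-degrading enzyme Hpgd (-3.23). The rises included Clstn2 (5.56), Gprin2 (4.91), Foxc2 (4.11), Tgif2 (3.28) and Sp8 (2.35), besides Il23a and Tert. The values in parentheses are log2 differences in the covariate fit, and these genes other than Cyp2c55, Aqp8, Il23a and Tert were named after their values were seen.

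The calls of the covariate fit rested on single arrays. With adjacent replicate 3 left out it called 171 genes, 121 higher and 50 lower. With Olfm4 mutant replicate 2 left out limma called 0, and 1032 of 18193 genes had an unadjusted p under 0.05. That number is near what this threshold passes when no gene differs. Of the 213 named called genes, 50 turned sign in that fit. The steepest Wnt rises turned on the adjacent array. Wif1 had 4.76 with all 15 arrays (limma adjusted p = 0.46) and 7.90 without it (limma adjusted p = 3.7e-05). Wnt10a had 6.59 and 8.44 (limma adjusted p = 0.0611 and 0.000201), and Mmp7 had 3.99 and 7.61 (limma adjusted p = 0.715 and 0.0258). Lgr6, Notum, Dkk2, Sp5 and Prox1 were likewise called only after that array was left out, as were Otop1, Sox2, Sox11, Slc30a2, Ms4a2, Mex3a, Mmp12, Ltf, Cxcl2, Cxcl3, Arg1 and Pnliprp2. Gcg went the other way, with an adjusted p of 0.0637 without the array. The array was left out after the data were seen. It was the highest adjacent array for all 14 genes with the greatest rise, so calls gained for those genes are not independent support. Both fits called 6 absorptive colonocyte genes lower, Car4 and Aqp8 among them, and also Fabp2, Otc, Dclk1 and Tert, and no cell cycle, goblet cell, smooth muscle or nerve gene was called in either. With a median SE of 0.59, a missing call in this fit does not show that a difference is absent.

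**Figure D5:**
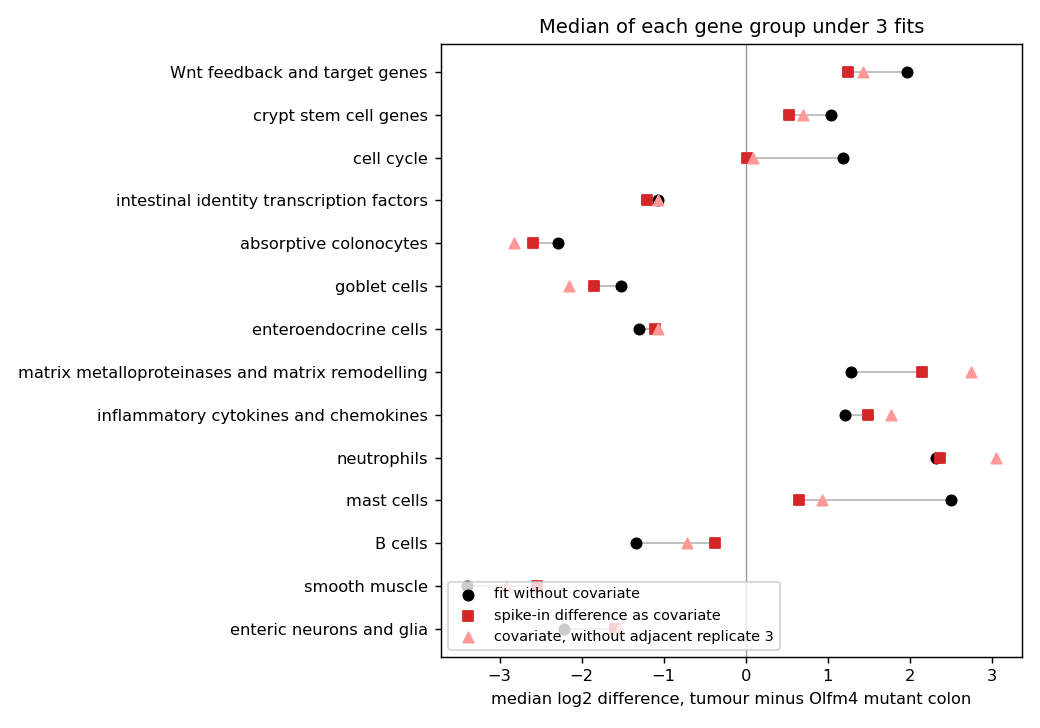
The median log2 difference (tumour minus Olfm4 mutant colon) of 14 gene groups is shown without the covariate (black), with the spike-in difference as covariate (red squares) and with the covariate after leaving out adjacent replicate 3 (light triangles). Absorptive colonocytes are at -2.28 and -2.60 in the first pair of fits, whereas the cell cycle moves from 1.18 to 0.02.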

How the data were processed

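Total RNA from mouse colon was labelled as biotinylated cRNA and hybridised to Affymetrix mouse genome arrays, per the labels' protocols. The deposited values are log2 intensities normalised by the authors with RMA (background correction, quantile normalisation and probe set summary) in Partek 6.5, per the submitters' processing notes, and were used as deposited. Array medians ran from 6.345 to 6.466. RMA forces equal distributions on the arrays, so a difference is relative to the other genes of the same array, and an array gives no count from which a depth could be computed: the number of arrays limits the precision.

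Of 45101 probe sets, 34945 had 1 gene symbol in the platform annotation, 932 had several, 9160 had none and 64 were controls. Each of 18193 genes was represented by its probe set with the highest mean over 15 arrays. The 5 group means were estimated together by lmFit and eBayes (limma 3.58.1, R 4.3.3), with p-values adjusted by Benjamini-Hochberg over all genes. "Rose" and "fell" mean an adjusted p under 0.05. The fit was tested on simulated data. Gene levels are compared between groups, never between genes.

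The genes and the 36 gene lists (573 genes measured) were chosen with earlier results of these data known. Genes were named by rule: the 14 highest and 14 lowest called genes without array overlap, leaving out predicted symbols; in each list the first pair as written and up to 4 further called members with the largest difference; and called genes that depart most from the wild type comparison. Other members are named where a count is small. Alternatives covered the probe set rule, the normalisation, the prior, array weights, a fold minimum, animals as blocks, each of the 6 compared arrays left out and the spike-in covariate. Tumour and adjacent pieces pair by the animal numbers of their titles; deviations from the group means correlated at 0.28, -0.02 and 0.18 between same-numbered pieces.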

Additional observations from a re-analysis of the deposited data

Results flagged for a closer look

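The bacterial spike-in probe sets are outside the gene comparison, and they differed between the groups compared. Their 3′ minus 5′ difference averaged 4.98 log2 units on the tumour arrays against 2.70 on the Olfm4 mutant arrays and 2.05 on the wild type arrays. Adjacent tissue averaged 4.12, so the samples from double mutants stood above all other groups.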

How the results depend on the processing

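No paired analysis was possible because no animal gave both Olfm4 mutant colon and tumour. For tumour against adjacent tissue, from shared animals, a replicate block gave 4915 calls, animal as a fixed block 5183 and as a random block 6627, against 5112; these blocks were added after seeing the data. The count of 7233 called genes stayed within 1.5 times under the other probe set rules, cyclic loess, the trend and robust prior, array weights, the 6 arrays alone, a fold minimum, animals as random blocks (6513) and arrays averaged within animals (5931). Of the 213 named called genes, the random block lost 10 and the averaging 21, and leaving out 1 compared array lost 10 to 21. Of the counts of list members in 1 direction, 4 and 10 were lower by more than 1.5 times under the random block and the averaging. Leaving out 1 compared array gave 5766 to 6858 called, 3023 to 3718 higher and 2694 to 3140 lower. Testing only genes above the median mean gave 4747 called and 2233 higher, from fewer genes tested. The spike-in covariate left 96 called, 40 higher and 56 lower. Of 213 named called genes, 9 were called there in the same direction, 186 were not called and 18 turned sign: Wnt16 -0.0982, Ctnnb1 -0.0204, Id1 1.3506, Mki67 -0.1131, Ltc4s 0.4375, Pecam1 0.8283, Emcn 0.0775, Cd79b 0.1707, Gzmb -0.4954, Prf1 0.2682, C1qa 2.5609, Fcer1a -0.2037, Relb 0.007, Iigp1 -0.2122, Rabac1 2.8688, Sct 0.973, Cda 1.4373 and Get3 1.371. The mean of probe sets gave -0.035 for Apc and -0.3596 for Ctnnb1, the most variable probe set -0.9246 and -1.2326, and leaving out suffixes x and s gave -0.0252 for Hamp2. Other alternatives were chosen after seeing the data. Without adjacent replicate 3, 6936 genes were called, and with the covariate added 171 (121 higher, 50 lower). Without Olfm4 mutant replicate 2 the covariate fit in limma called 0 genes in either direction (0 higher, 0 lower), with 1032 at an unadjusted p under 0.05. Of the 213 named called genes, 50 turned sign in that fit, and 17 in the covariate fit without adjacent replicate 3. The cause was not tested.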

Other observations

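Of the 96 genes called with the spike-in covariate, 5 were not called without it. Rec114, a meiotic recombination protein, differed by 5.91 with the covariate (limma adjusted p = 0.0213) and by 0.84 without it (limma adjusted p = 0.263). Mif, a cytokine that many cells make, differed by 2.08 with it and 0.17 without it. The splicing factor Rbfox2 differed by 2.11 and 0.47, Spindoc by 2.55 and 0.11, and the predicted gene Gm16630 by -3.09 and -0.36. These genes were named after their values were seen.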
